A study of Oryza sativa Japonica Group with 6 samples.

Results

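Class III peroxidases are the plant-specific family of secreted haem peroxidases. They were followed in the coleoptile, the sheath around the first leaf of a grass seedling, of wild-type rice and of the rad mutant. Members were the cDNAs whose array description contains the word peroxidase, leaving out descriptions with ascorbate, glutathione, phospholipid or thioredoxin, which name other peroxidase families. Of 104 descriptions with the word, 16 were left out, which gave 88 of the 21495 cDNAs on the array. Of these, 78 were measured well enough to be tested, among 19947 tested in all.

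Both genotypes were of the cultivar Kinmaze, and all seeds had germinated under submergence. The series title describes rad as a mutant of reduced ADH activity, where ADH is alcohol dehydrogenase of ethanol fermentation. The labels do not say what the lesion is, and age was not given in the sources used here. Coleoptiles were cut from frozen sections by laser microdissection, and their RNA was amplified linearly before labelling. Each of 6 two-colour arrays carried the RNA of both genotypes in different dyes, and each of 3 replicates was measured on a pair of arrays with the dyes swapped. Per channel, 90.4% to 95.7% of probes were well above background, and the number of arrays limits the precision. Whether replicates were grown separately is not in the labels, so the p-values describe the spread among these samples, and that spread may be technical.

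A class III peroxidase takes electrons from phenolic compounds and passes them to hydrogen peroxide. In the cell wall the resulting phenoxyl radicals couple into lignin, link ferulate residues of grass arabinoxylans and cross-link structural proteins such as extensins, which stiffens the wall. The same enzymes can also produce reactive oxygen species, and in a growing organ both activities bear on how far a wall can extend. Grass genomes hold large families of these genes, and many members respond to pathogens, wounding or oxygen supply.

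The descriptions are best matches, often from another species, so a name below tells what the cDNA resembles and not what its product does in rice. The 88 members carried 41 different descriptions, and 64 members shared a description with another member. Such cDNAs may come from 1 gene or from close copies, whose transcripts a probe may not separate, so members are not independent of each other. One member, AK110148, is described by a fungal peroxidase-producing enzyme, a glyoxal oxidase, and not by a peroxidase. Its log2 ratio was -0.03 ± 0.09 (SD, n = 3), and leaving it out changed no count of calls among the members.

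Most peroxidases differed little between the genotypes, and among those called, more were lower than higher in the mutant. By limma with Benjamini-Hochberg adjustment over all tested probes, called at an adjusted p under 0.05, 11 of the 78 fell and 2 rose. These are 14.1% and 2.56%, against 10.1% and 14.6% of all probes. The largest falls were in a cDNA resembling a white clover peroxidase, AK071392, which was 2.66-fold lower, and in one resembling peroxidase 1 of Scutellaria baicalensis, AK105708, which was 2.57-fold lower. Both rises were small, at 1.22-fold for AK069456 and 1.17-fold for AK103558. The remaining 65 did not pass the test. Without replicate 2 the counts were 3 lower and 0 higher, without replicate 1 they were 8 and 1, and without replicate 3 they were 13 and 3. A fit of the 6 arrays with a replicate block called 18 lower and 4 higher, or 23.1% and 5.13%, against 14.6% and 19.4% of all probes. It kept all 13 calls and added AK102122 and AK101772 as higher and AK058883, AK060687, AK061040, AK061809, AK069281, AK073360 and AK108037 as lower.

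Over all probes, 14.6% were called higher and 10.1% lower, or 24.7% in either direction. Among the peroxidases these shares were 2.56%, 14.1% and 16.7%. The share called lower lay near the background, and the share called higher lay below it. At least a 2-fold change was called upwards in 1.79% and downwards in 0.822% of all probes, against 0 upwards and 2 downwards among the 78 peroxidases. Sizes of ratios, and so these 2-fold counts, depend on the processing, as described with the alternatives. By the same limma fit 24 of the 78 had an unadjusted p under 0.05, against 7637 of all 19947 tested probes, which is a larger share. The median log2 ratio of mutant over wild type was -0.04 over the peroxidases and -0.01 over all probes. The median size of the ratio, without its sign, was 0.112 for the peroxidases and 0.0949 for all probes.

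**Figure D1:**
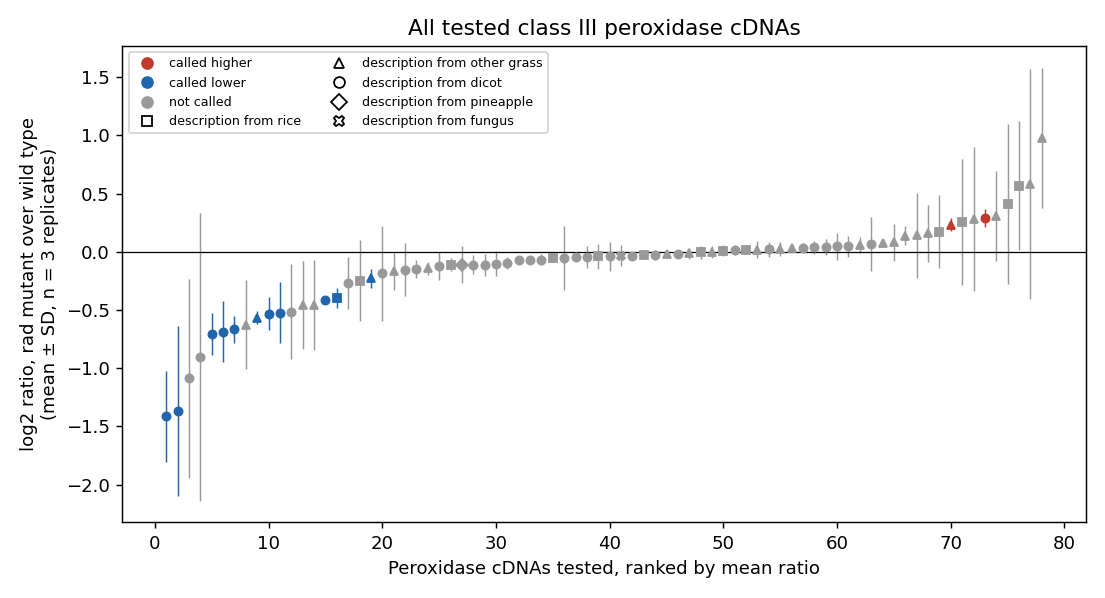
Log2 ratio of mutant over wild type, averaged over replicates, for each of the 78 tested peroxidase cDNAs, in rank order, with bars of ± SD over 3 replicates; colour marks the call and the symbol marks the species of the description. The 11 called falls lie on the left among several uncalled cDNAs with wide bars, and most of the ranking lies close to 0.

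Expression is given below as normalised log2 intensity of each genotype, which can be set between genotypes for a probe but not between probes. In RNA from the many cells of a dissected coleoptile, fewer cells that express a gene and less RNA per cell cannot be told apart. Levels in all 3 mutant samples lay below all 3 wild-type samples for 15 of the 78 peroxidases, against 12.4% of all probes. For 2 of the 78 they lay above, against 16.6% of all probes.

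Of the peroxidases named after rice itself, 13 of 15 were tested, and 1 was called. The shares called were 7.69% lower and 0% higher, against 10.1% and 14.6% of all probes. AK066855 carries the description of a japonica rice peroxidase that 8 tested cDNAs share. Its level was 6.42, 6.28 and 6.38 in the mutant and 6.85, 6.58 and 6.84 in the wild type, in the order of the replicates. The genotypes did not overlap, and the mean log2 ratio was -0.40 ± 0.09 (SD, n = 3, limma adjusted p = 0.0107). Without replicate 1 the adjusted p was 0.0694. The other 7 cDNAs with this description did not pass the test, and their mean ratios lay between -0.25 and 0.17.

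POX8.1 and POX22.3 are rice peroxidases known to be induced when leaves are infected by the blight bacterium Xanthomonas oryzae. The cDNA AK101772, described as POX8.1, had log2 ratios of 0.08, 0.45 and 1.17 in replicates 1, 2 and 3. Its mutant levels of 7.66, 8.55 and 9.41 overlapped the wild-type levels of 7.58, 8.09 and 8.24. The mean of 0.57 ± 0.55 did not pass the test (limma adjusted p = 0.145), and its 95% interval ran from -0.03 to 1.17. A second cDNA with the same description, AK106109, had ratios between -0.06 and 0.00 and a mean of -0.03 ± 0.03 (limma adjusted p = 0.564). The remaining POX8.1 cDNA, AK108994, was left out of the test for an outlier spot and had a mean of -0.03 ± 0.01. The 3 cDNAs of 1 description thus did not give 1 value.

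For AK073202, described as POX22.3, the log2 ratios were -0.35, 0.59 and 0.99. Replicate 1 ran against the others, and the mean of 0.41 ± 0.69 was not called (limma adjusted p = 0.343, 95% interval -0.33 to 1.15). OsCPX1, a cationic rice peroxidase, is the description of AK102307, with wild-type levels of 12.38, 12.72 and 12.66. Its mutant levels were 12.73, 13.46 and 12.33, which overlapped the wild type. The ratio was above 0 in replicates 1 and 2 and below 0 in replicate 3, with a mean of 0.26 ± 0.54 (limma adjusted p = 0.450). Without replicate 3 this cDNA was called higher.

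Among the other japonica cDNAs, AK107894 had log2 ratios of -0.15, -0.14 and -0.05 and missed the threshold (limma adjusted p = 0.120). AK108824 went from 0.10 in replicate 1 to -0.59 in replicate 3, with -0.26 in replicate 2 (limma adjusted p = 0.277). The mean log2 ratio was -0.05 ± 0.02 for AK109348, -0.04 ± 0.11 for AK072862 and 0.01 ± 0.03 for AK068148. AK108713 had a mean of 0.17 ± 0.31 that rests on 1 array. Its arrays of replicate 2 read 0.01 when Cy5 labelled the mutant and 1.05 when Cy3 did, the widest difference within a pair among the members, and replicates 1 and 3 were at -0.04 and 0.03. The remaining tested rice-named members, AK073616 and AK099448, had mean ratios of 0.01 and -0.01. A putative rice peroxidase prxRPN, AK103019, was not well above background on enough arrays to be tested.

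Of 26 members named after other grasses, 24 were tested, with 1 called higher and 2 lower. These are 4.17% and 8.33%, against 14.6% and 10.1% of all probes. Maize supplied most of these names through pox1, pox2 and pox3, peroxidases studied in connection with lignifying tissue, and an anionic peroxidase. AK068894, described as maize pox1, was at 7.07, 7.26 and 7.24 in the mutant and at 7.70, 7.79 and 7.78 in the wild type. Mutant and wild type were well separated. The mean log2 ratio of -0.57 ± 0.06 (n = 3, limma adjusted p = 0.00471) is a 1.48-fold fall in the main fit. Its size depended on the processing, with a ratio of -0.84 with normexp without offset and -0.96 with the deposited table. AK068894 and AK105363, described below, were called under every alternative in which their probes were tested; with 1 probe per description another pox1 cDNA stood in for AK068894.

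None of the other tested pox1 cDNAs was called, although the mean of AK058883 was close to that of AK068894. AK058883 had ratios of -0.30, -0.53 and -1.05 and just missed the threshold, at -0.62 ± 0.38 (limma adjusted p = 0.0536). Without replicate 3 it was called lower. AK108345 and AK072945 had means of 0.03 and 0.02, and AK070715 was too dim to be tested. The description pox1 therefore covered cDNAs with a fall and cDNAs with ratios near 0.

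Maize pox2 was the most frequent description, with 11 cDNAs, all tested, whose mean log2 ratios ran from -0.45 to 0.98. Only AK099751 was called, with mutant levels of 7.20, 7.45 and 7.29 just below wild-type levels of 7.50, 7.59 and 7.53. Its mean of -0.23 ± 0.08 (n = 3, limma adjusted p = 0.0343) lost the call when any 1 replicate was left out and when only arrays carrying the mutant in Cy5 were fitted, with adjusted p up to 0.126. The highest mean of all peroxidases belonged to AK102122, also described as pox2. Its ratios were 1.67, 0.66 and 0.61, above 0 on all 6 arrays, with a mean of 0.98 ± 0.60 that narrowly missed the threshold (limma adjusted p = 0.0520). Without replicate 1 it was called higher.

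AK102122 and AK068755, both described as pox2, each had their lowest wild-type level in replicate 1, below all 3 of their mutant levels. The mutant levels of AK102122 were close together at 11.69, 11.77 and 11.84, whereas the wild type was at 10.02 in replicate 1 and at 11.11 and 11.23 in the others. AK068755 had mutant levels of 11.26, 11.44 and 11.33 and wild-type levels of 10.31, 11.30 and 11.60. Its mean log2 ratio was 0.28 ± 0.62 (limma adjusted p = 0.466). These 2 cDNAs were picked out after their values were seen, and whether they come from 1 gene was not tested.

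The pox2 cDNA AK061809 had ratios of -0.02, -0.59 and -0.75 and was not called (limma adjusted p = 0.113), while it was called lower without replicate 1 and with the replicate block. Its mutant levels were nearly constant, at 9.06, 9.02 and 9.05, and the wild-type levels were 9.08, 9.61 and 9.80. AK073767 stood apart in the other direction, with mutant levels of 6.77 and 6.93 in replicates 1 and 2 and 8.74 in replicate 3, against 6.74, 6.95 and 7.02 in the wild type. Its ratio was thus near 0 in replicates 1 and 2 and 1.72 in replicate 3.

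Of 5 cDNAs described as the anionic peroxidase of maize, AK103558 was called higher. Its level was 6.95, 7.29 and 7.22 in the mutant and 6.78, 7.04 and 6.95 in the wild type, so that the ranges of the genotypes overlapped although each replicate had a positive ratio. The mean log2 ratio was 0.23 ± 0.06 (n = 3, limma adjusted p = 0.0223). This call was lost when any 1 replicate was left out, when only arrays carrying the mutant in Cy3 were fitted, and when arrays were centred on the median, with adjusted p up to 0.141. The anionic-type cDNA AK073360 lay on the other side, with ratios of -0.13, -0.38 and -0.87 and no call (limma adjusted p = 0.105). BP 1 is a peroxidase of barley grain, and AK104277, which resembles it, had a mean of 0.31 ± 0.38 (limma adjusted p = 0.231), with the highest ratio, 0.75, in replicate 3.

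Homologues named after dicots made up 45 members, of which 39 were tested. Of these, 8 were called lower and 1 higher, or 20.5% and 2.56%, against 10.1% and 14.6% of all probes. Whether the calls differ with the species of the description was not tested. AK071392, described as a peroxidase of white clover, Trifolium repens, had mutant levels of 8.23, 8.05 and 8.46 and wild-type levels of 10.07, 9.37 and 9.53. No mutant sample came near a wild-type sample. The log2 ratios were -1.84, -1.32 and -1.08, and the arrays of each colour-swap pair differed by no more than 0.0825. The mean of -1.41 ± 0.39 (n = 3, limma adjusted p = 0.00943) lost its call without replicate 2, with an adjusted p of 0.0543. A second cDNA with this description, AK058886, had ratios of -0.42, -0.02 and -0.03 and was not called (limma adjusted p = 0.310).

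AK105708 resembles peroxidase 1 of Scutellaria baicalensis, an enzyme that oxidises the flavonoid baicalein in that plant. Its level was 7.76, 7.92 and 8.89 in the mutant and 9.63, 9.61 and 9.41 in the wild type. The genotypes did not overlap, but the log2 ratio of replicate 3, -0.53, was much smaller than the -1.87 and -1.70 of replicates 1 and 2. The mean was -1.36 ± 0.73 (n = 3, limma adjusted p = 0.0376). The call was lost without replicate 1 or without replicate 2, with adjusted p up to 0.169. AK103660, of the same description, had a mean of -0.10 ± 0.11 (limma adjusted p = 0.245).

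The Arabidopsis peroxidases prxr5 and prxr8 are the descriptions of AK061013 and AK105363. AK061013 was at 9.81, 10.24 and 10.29 in the mutant and at 10.69, 10.96 and 10.81 in the wild type, with no overlap. Its mean log2 ratio was -0.71 ± 0.18 (n = 3, limma adjusted p = 0.00937), and without replicate 2 the adjusted p was 0.0614. AK105363 was at 6.47, 6.79 and 6.76 in the mutant and at 7.01, 7.56 and 7.44 in the wild type. All its mutant samples were below all wild-type samples, at a mean ratio of -0.67 ± 0.12 (n = 3, limma adjusted p = 0.00604).

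AK101508 is described as the 40K cationic peroxidase isozyme of tobacco. It was at 10.87, 10.58 and 11.03 in the mutant and at 11.52, 11.55 and 11.47 in the wild type, and the mean log2 ratio was -0.69 ± 0.26 (n = 3, limma adjusted p = 0.0189). The wild type was steady and the mutant varied. Without replicate 1 or without replicate 2 the call was lost, with adjusted p up to 0.106. AK109551, of the same description, had a mean of -0.03 ± 0.02.

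Of the smaller falls, that of AK109381, a putative Arabidopsis peroxidase of the gene At2g34060, had the smallest spread. Its log2 ratios were -0.39, -0.41 and -0.45, with a mean of -0.42 ± 0.03 (n = 3, limma adjusted p = 0.00598), and without replicate 2 the adjusted p was 0.0515. AK059661, described as the spinach clone PC56, was lower by 0.64 and 0.71 in replicates 1 and 2 but had a ratio of only -0.22 in replicate 3. Its mean was -0.52 ± 0.26 (n = 3, limma adjusted p = 0.0354), and the call was lost without replicate 1 or replicate 2, with adjusted p up to 0.173. The closely named spinach clone PC55, AK060007, had a mean of -0.11 ± 0.08 and no call.

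AK069456, described as the tobacco peroxidase clone tpoxC1, was the larger of the 2 rises. Its level was 9.08, 9.44 and 9.41 in the mutant and 8.76, 9.10 and 9.21 in the wild type, so that the ranges overlapped, while the mutant was higher within each replicate. The mean log2 ratio was 0.29 ± 0.08 (n = 3, limma adjusted p = 0.0183). The call was lost without replicate 1, without replicate 2, and in a fit of only those arrays that carry the mutant in Cy3, with adjusted p up to 0.118. AK065305, of the same description, had a mean of -0.07 ± 0.02 (limma adjusted p = 0.216).

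**Figure D2:**
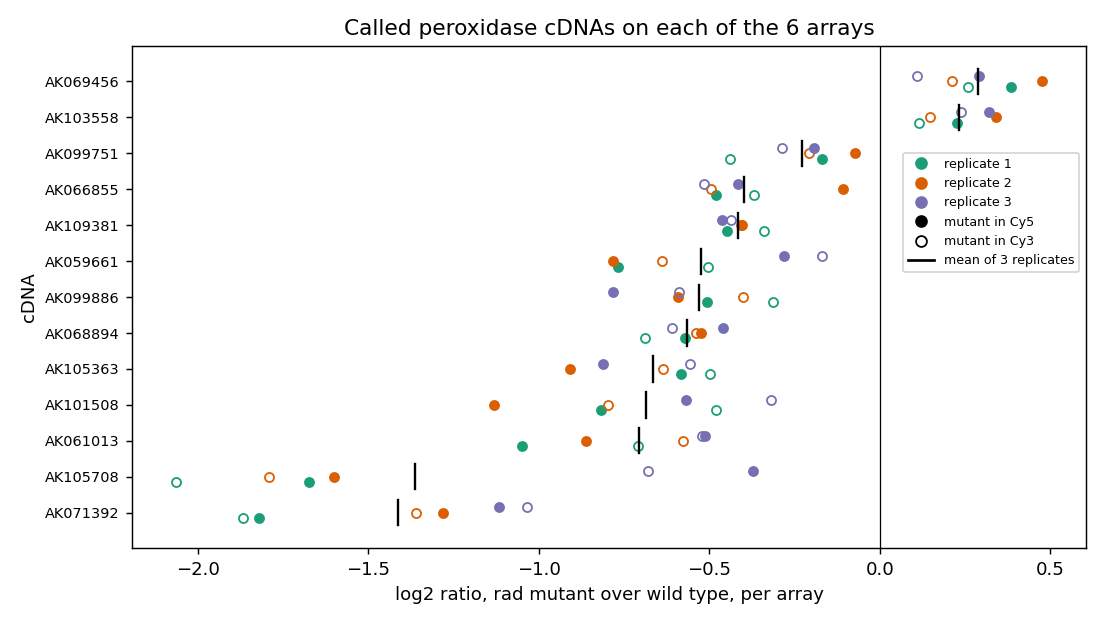
Log2 ratio of mutant over wild type on each of the 6 arrays for the 13 called peroxidase cDNAs; colour marks the replicate, filled circles the mutant in Cy5, open circles the mutant in Cy3, and the vertical line the mean of 3 replicates. All points of the 11 falls lie below 0 and all points of the 2 rises above 0; replicate 3 of AK105708 lies apart from its other replicates.

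A cotton peroxidase induced by bacteria is the description of 7 cDNAs, all tested. AK099886 was called lower, with mutant levels of 7.87, 7.71 and 7.62 and wild-type levels of 8.28, 8.21 and 8.30. The genotypes did not overlap, and the mean log2 ratio was -0.53 ± 0.14 (n = 3, limma adjusted p = 0.0111). Without replicate 2 the adjusted p was 0.0670. AK060687 had a larger mean, -1.09 ± 0.85, but was not called (limma adjusted p = 0.0915). Its ratios were -1.88, -1.20 and -0.18, and without replicate 3 it was called lower. AK108037 had ratios of -0.04, -0.76 and -0.74, without a call (limma adjusted p = 0.0976), and was called lower without replicate 1. The other 4 had means between -0.18 and 0.05.

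Markers of other tissues were read on the same arrays. Of 9 cDNAs described as the root-specific rice transcripts RCc2 and RCc3, 6 were tested and 2 were called lower, AK062381 at -1.19 ± 0.47 and AK063090 at -0.31 ± 0.06. That is 33.3% of these 6 cDNAs, against 10.1% of all probes. The mean level of the 6 was 10.18 to 10.82 in the mutant and 10.94 to 11.05 in the wild type. Both calls were lost without replicate 1 or without replicate 2, and 4 of the 6 were called lower without replicate 3. Their median log2 ratio was -0.65 in replicate 1, -0.66 in replicate 2 and 0.01 in replicate 3. All 6 were above background in both genotypes on at least 1 array. Among the 11 called peroxidase falls, the ratio was nearest to 0 in replicate 3 in 5, AK105708 among them, and furthest from 0 there in 3. The uncalled peroxidases were not counted in this way. As examples picked after the values were seen, AK060687 was nearest to 0 in replicate 3, and AK058883 and AK104633 were furthest from 0 there. The part of root tissue in these peroxidase values was not tested.

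Of 21 tested leaf photosynthesis cDNAs, 1 was called higher and 3 lower, and of 15 tested aleurone amylase cDNAs 2 were called lower. The shares called lower, 14.3% and 13.3%, lay near the 10.1% of all probes. Those called higher were 4.76% and 0%, against 14.6%. Without replicate 2 no cDNA of either list was called. None of the 13 tested storage protein and oleosin cDNAs was called by limma, and 3 of the 13 had an unadjusted p under 0.05, with 1 called lower without replicate 3. Of 6 cellulose synthase-type cDNAs taken as markers of the vascular wall, 1 was higher and 2 lower, or 16.7% and 33.3%. The counts were 0 and 1 without replicate 1 or without replicate 2. This list has no marker of the xylem alone. The descriptions gave no list of markers that define the coleoptile, so the labelled tissue could not be checked against one.

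Several peroxidases differed widely between replicates. The range of the log2 ratio over the 3 replicates exceeded 1 in 9 of the 78 peroxidases, or 11.5%, against 1.32% of all probes. The limit of 1 was chosen after the values were seen, and the shares are a description without a test. In these 9 cDNAs the arrays of a colour-swap pair differed by 0.434 at most, so the disagreement lay between replicates and not between arrays of 1 replicate. Only AK105708 among the 9 was called.

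AK104633, described as a peroxidase of sweet potato, had the widest range. Its log2 ratio was 0.16, -0.60 and -2.26 in replicates 1, 2 and 3. The wild type was steady at 9.89, 10.06 and 10.13, whereas the mutant was at 10.05, 9.46 and 7.87. The mean of -0.90 ± 1.24 was not called (limma adjusted p = 0.260), and the 95% interval from -2.23 to 0.43 leaves its direction unsettled. The other 7 uncalled cDNAs with a range over 1 were AK073767, AK060687, AK073202, AK068755, AK101772, AK102307 and AK102122, described above.

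The sign of the ratio differed between replicates in 36 of the 78 peroxidases, or 46.2%, against 37.5% of all probes. Across the 78 cDNAs the ratios correlated at Pearson r = 0.788 between replicates 1 and 2, 0.567 between 2 and 3 and 0.281 between 1 and 3. Over all probes the same values were 0.885, 0.840 and 0.755. These are correlations across genes, which share arrays and are not independent replicates. Between the means of the 2 dye orientations no peroxidase differed by more than 0.322.

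**Figure D3:**
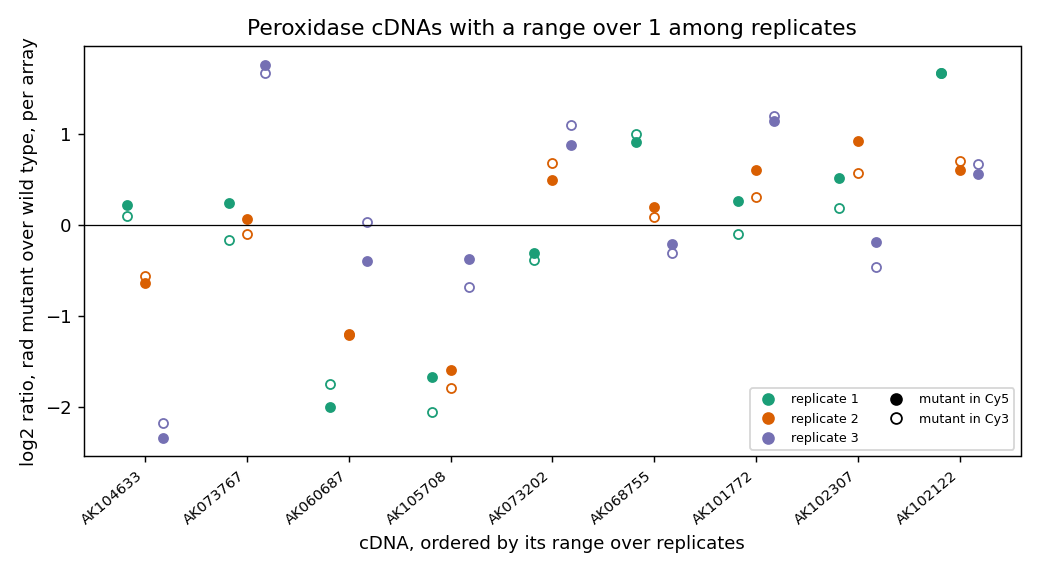
Log2 ratio of mutant over wild type on each of the 6 arrays for the 9 peroxidase cDNAs whose range over replicates exceeds 1; colour marks the replicate and filled or open circles mark the dye of the mutant. Both arrays of a replicate lie close together in each cDNA while the replicates lie far apart, with single arrays of replicate 3 reaching -2.34 in AK104633 and 1.76 in AK073767.

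For many of the uncalled peroxidases the intervals of the main fit were narrow. They describe the spread under that processing and do not bound the fold change under another. AK066855, a called member, had an interval from -0.53 to -0.27 but a log2 ratio of -0.93 with normexp without offset. Of the 65, 50 had a mean log2 ratio within 0.2 of 0, and for 58 the 95% interval of the fit lay within a 2-fold change in either direction. Among all 15018 uncalled probes these counts were 13732 and 14841, so the peroxidases were less tightly bounded than the array as a whole. AK071181, described as potato prx2, had a mean of 0.07 ± 0.23 with an interval from -0.20 to 0.33. The intervals of the other 7 uncalled peroxidases, all with uneven replicates, reached beyond a 2-fold change.

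Of the 10 members that were not tested, AK108994 had the outlier spot given above. The other 9 were not well above background on at least 4 of the 6 arrays in either genotype, and their ratios carry no size. AK109480, resembling barley BP 1, AK071385, resembling At5g47000, and AK106171, resembling At5g42180, were well above background on 0 arrays in both genotypes. At5g42180 is an Arabidopsis peroxidase of lignin deposition in the Casparian strip of the root endodermis. AK058554, AK060295, AK060984, AK070715, AK071111 and AK103019 were above background on 1 to 3 arrays in at least 1 genotype. No tested peroxidase was saturated on any array.

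Peroxidases need hydrogen peroxide, and enzymes that supply it outside the cell included several falls. Of 24 tested cDNAs for NADPH oxidases, germin-type and amine oxidases, 5 were called lower and 0 higher, with a median log2 ratio of -0.05. These are 20.8% and 0% of a short list, against 10.1% and 14.6% of all probes, and the difference was not tested. AK099714, described as tobacco NADPH oxidase rbohD, which makes superoxide at the plasma membrane, had ratios of -0.79, -0.73 and -0.91 and a mean of -0.81 ± 0.09 (n = 3, limma adjusted p = 0.00400). AK105824, a putative copper amine oxidase, which releases hydrogen peroxide from amines, had a mean of -0.53 ± 0.07 (limma adjusted p = 0.00558). AK105351, a germin-like protein, had a mean of -0.38 ± 0.08 (limma adjusted p = 0.0112). The mutant was lower on all 6 arrays for each of these 3. The list had 2 falls without replicate 1 or without replicate 2, where AK105351 lost its call.

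The next lists are short, and their counts are to be read against 14.6% of all probes called higher and 10.1% called lower. Superoxide dismutase turns superoxide into hydrogen peroxide. Of 6 tested cDNAs, 1 was called, AK073785, a putative CuZn enzyme of aspen type, at 0.45 ± 0.24 (n = 3, limma adjusted p = 0.0411), a call lost without replicate 1, without replicate 2 and with median centring. None of 3 catalase cDNAs was called by limma, with 0 at an unadjusted p under 0.05, although 1 was called higher without replicate 3. The same held for 11 ascorbate peroxidase cDNAs, the haem peroxidases inside the cell, of which 1 had an unadjusted p under 0.05 and 1 was called higher without replicate 3. Among 8 thiol peroxidase cDNAs, rice glutathione peroxidase 1 (GPX1, AK062772) rose, with ratios of 1.52, 1.62 and 1.68 and a mean of 1.61 ± 0.08 (n = 3, limma adjusted p = 0.00198). A thioredoxin peroxidase, AK068919, fell slightly, at -0.15 ± 0.03 (limma adjusted p = 0.0486), and lost its call without any 1 of the replicates.

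Of 56 tested cDNAs for enzymes that make the phenolic substrates, the phenylpropanoid and monolignol pathway, 8 were called higher and 6 lower, with a median log2 ratio of 0.02. These shares, 14.3% and 10.7%, lay near the 14.6% and 10.1% of all probes. AK105693, a 4-coumarate-CoA ligase-like protein, was at 1.69 ± 0.35 (n = 3, limma adjusted p = 0.00597). AK070746, resembling maize cinnamoyl-CoA reductase, which acts at the entry to monolignols, was at 0.95 ± 0.18 (n = 3, limma adjusted p = 0.00591). AK060705, resembling tobacco hydroxycinnamoyl transferase, was at 0.63 ± 0.14 (n = 3, limma adjusted p = 0.00815). Each of these 3 was higher in the mutant on all 6 arrays. The counts were 6 higher and 2 lower without replicate 1, 3 and 0 without replicate 2, where AK060705 lost its call, and 12 and 5 without replicate 3.

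Laccases, copper enzymes that also oxidise monolignols, gave 0 calls among 10 tested cDNAs by limma, against 24.7% of all probes called. Of the 10, 1 had an unadjusted p under 0.05. Dirigent proteins, which steer the coupling of phenoxyl radicals, were represented by 2 tested cDNAs, AK108983 at -0.35 ± 0.10 and AK106022 at -0.49 ± 0.24. Both were called lower (limma adjusted p = 0.0163 and 0.0333), but 2 cDNAs are too few to set against the 10.1% of all probes. Neither was called without replicate 1 or without replicate 2, and AK106022 was not called without replicate 3. Structural wall proteins, among them the extensins that peroxidases cross-link, had 2 calls higher and 6 lower among 35 tested. These are 5.71% and 17.1%, against 14.6% and 10.1% of all probes. The counts were 0 and 2 without replicate 1, 1 and 2 without replicate 2, and 3 and 7 without replicate 3. The extensin-like cDNA AK071989 was at -1.01 ± 0.10 (n = 3, limma adjusted p = 0.00350) and the proline-rich AK103715 at -0.83 ± 0.21 (n = 3, limma adjusted p = 0.00838). The glycine- and proline-rich AK068289 went the other way, at 1.26 ± 0.30 (n = 3, limma adjusted p = 0.00721), and was not called without replicate 1. Whether the calls of these lists differ from those of the peroxidases was not tested.

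**Figure D4:**
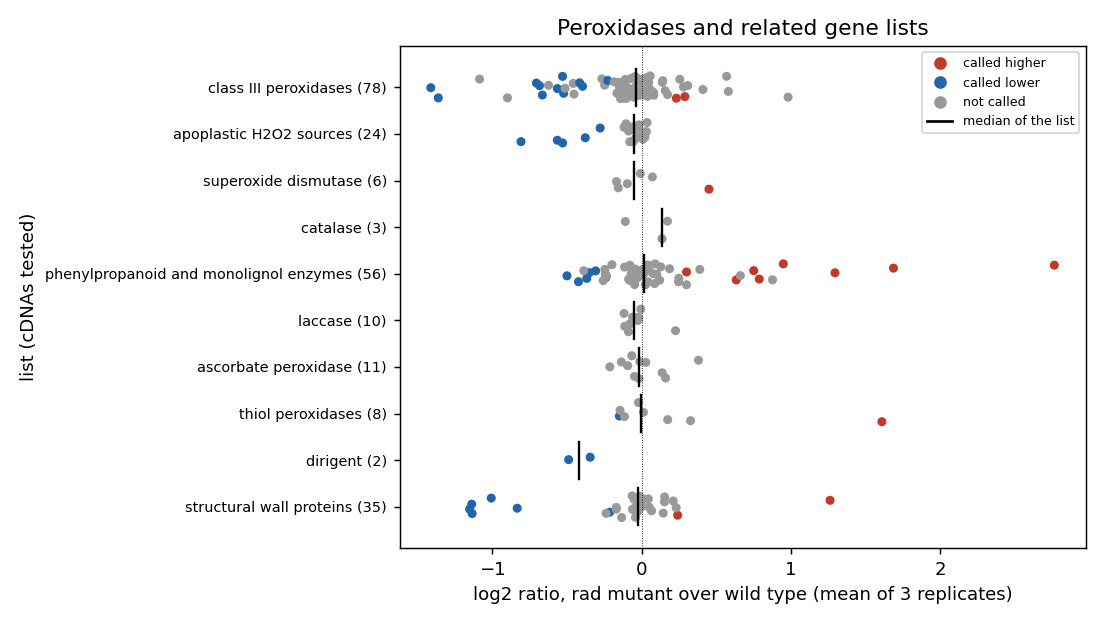
Log2 ratio of mutant over wild type, as the mean of 3 replicates, for every tested cDNA of the peroxidases and 9 related lists, coloured by call, with a vertical line at each list's median and the number tested beside its name; vertical scatter within a row only separates points. The peroxidases reach further below 0 than above it among called cDNAs, hydrogen peroxide sources are called in 1 direction, and phenylpropanoid enzymes are called in both.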

How the data were processed

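The arrays were 2-colour Agilent arrays of 22575 spots, scanned and quantified with Agilent's Feature Extraction software, per the file headers. The deposited scanner files give, for each channel, the mean intensity of a spot and the intensity of its local background, without normalization, and flags of 0 or 1. A value table made by the authors holds log10 ratios; on every array these correlated with the ratio of the scanner's processed intensity values, turned to mutant over wild type, at 0.996 to 0.998, with column medians of -0.000853 to 0, and any further scaling is not stated. The sources used here do not say how RNA was pooled.

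From the intensity values, ratios were computed with limma 3.58.1 in R 4.3.3, using normexp with an offset of 50 and loess within arrays, with control spots at weight 0. A probe was kept when well above background in the mutant or in the wild type on at least 4 of 6 arrays and free of outlier flags. The dyes in the labels set the direction of each ratio. Arrays of 1 colour-swap pair were averaged to n = 3, because a swap is a technical repeat; a dye effect cancels there. The mean ratio was tested against 0 with lmFit and eBayes, two-sided, over 19947 probes with Benjamini-Hochberg adjustment. The 95% intervals are those of limma, with 4.26 degrees of freedom. Levels of each genotype are from the same values after Aquantile normalization between arrays. The fit was tested on simulated data.

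Array titles number the pairs. Deviations of arrays from the average of their dye orientation correlated, across genes, at 0.805, 0.663 and 0.840 within pairs, and at -0.662 to -0.115 between numbers. The gene table given matched 0 of 88 member accessions, so loci, positions and sequences are left out. The members and gene lists were chosen, as text patterns, with earlier results of these data known. Members given in full were the called ones, and up to 10 further rice-named members by smallest p; from each related list up to 3 called cDNAs by smallest p were named. Other members named were chosen after their values were seen.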

Additional observations from a re-analysis of the deposited data

How the results depend on the processing

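Over the 18 alternatives run, calls depended most on the replicates. Of the 13 called peroxidases, 6 remained without replicate 1, 3 without replicate 2 and 11 without replicate 3, and the falls counted 3 to 13 and the rises 0 to 3 over these fits. The number called over all probes was 1491, 1184 and 4573 there, against 4929 in the main fit, so calls were lost over the whole array as well. Each of these fits rests on 2 replicates. With 6 arrays and a replicate block, 4 peroxidases were higher and 18 lower, also with a dye term (4 and 18), and all 13 calls remained. These shares, 5.13% and 23.1%, stand against 19.4% and 14.6% of all probes, or 18.6% and 13.5% with the dye term. The block fit treats arrays of 1 pair as partly independent. Rises numbered 5 with the mutant in Cy5 alone, 1 with it in Cy3 alone and 4 with normexp without offset. Sizes also changed with the processing. The log2 ratio of AK105363 was -0.67 in the main fit, -1.18 without offset and -1.46 with the deposited table. In both alternatives its fall exceeded 2-fold. For AK066855 the same values were -0.40, -0.93 and -1.07. AK071392 and AK105708 moved less, from -1.41 and -1.36 to -1.61 each without offset, and AK061013 went from -0.71 to -0.74. With 1 probe per description 6 falls remained of 36 tested. In all 18 the share of peroxidases called higher was below that of all probes and the share called lower above it. All 18 draw on the same 6 arrays, so they are not independent results, and neither difference was tested.

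The median ratio of the peroxidases was -0.0490 to -0.0222 when a replicate was left out, -0.0569 with the mutant in Cy5 and -0.0257 in Cy3 alone, -0.0352 without background subtraction, -0.0546 with normexp without offset, -0.0554 with the scanner's processed signals and with the deposited table, -0.0565 with median centring, -0.0318 without the filter, -0.0376 with probes above background on all 6 arrays and with outlier spots kept, -0.0615 with 1 probe per description and -0.0403 without AK110148. Among the 23 members followed singly, reversed signs arose in AK108713 (-0.0050 to 0.28 when a replicate was left out), AK072862 (-0.0767 to 0.0209 likewise) and AK068148 (-0.0242 in Cy3 alone), all uncalled; the cause was not tested. Over all 78 members, 10 changed sign without replicate 1, 5 without replicate 2, 4 without replicate 3, 5 and 13 with the mutant in Cy5 or Cy3 alone, 2 with processed signals or the deposited table and 5 with median centring; none of these was a called member. Of the 14 named cDNAs of related lists, 8 were called without replicate 1, 8 without replicate 2, 12 without replicate 3 and 14 with the replicate block. Scan day as a block was not run, since all arrays were scanned on the same day. Ratios of dim probes are limited by signal over background, whose median was 3.998 to 10.3 per channel.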
